A study of Rattus norvegicus with 6 samples.

Results

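Prostaglandin synthesis and signalling was followed through 10 genes in mesenchymal stem cells of rat bone marrow, stromal cells known to grow attached to plastic and to give rise to bone, cartilage and fat. The members were taken by name: the cyclooxygenase genes Ptgs1 and Ptgs2, the prostaglandin E synthase genes Ptges, Ptges2 and Ptges3, the prostacyclin synthase gene Ptgis, the prostaglandin D synthase gene Ptgds, the receptor genes Ptger2 and Ptger4, and the degrading enzyme gene Hpgd. Of these 10 genes, 9 were found among the 21026 gene symbols of the count table, and all 9 passed the filter on low counts. Ptgds was not analysed here. Polyadenylated RNA was sequenced from cells labelled aged (3 libraries) and cells labelled Young (3 libraries), and the series title places the work in bone healing in the elderly. The labels give no strain, sex, age in months, passage or culture condition, and the cells of both groups carry no named treatment or genetic change. They number the libraries as biological replicates without saying whether each came from its own animal, so p-values measure library-to-library spread, part of which may be technical.

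Prostaglandins are made from arachidonic acid that phospholipases cut from membranes. Cyclooxygenases turn it into prostaglandin H2, and terminal synthases turn that into prostaglandin E2, prostacyclin and their relatives, which leave the cell and act on G protein-coupled receptors nearby. The prostaglandin E2 receptors EP2 and EP4 raise cyclic AMP, and the signal ends when the prostaglandin is taken up and oxidised. In marrow stroma prostaglandin E2 is known for its effects on bone formation and on immune cells.

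Libraries held 34638874 to 38921547 counts in aged cells and 40180480 to 42479626 in young cells. Across genes, log2 expression correlated at 0.991 to 0.993 between libraries of 1 group and at 0.821 to 0.833 between groups. Young replicate 2 stood somewhat apart: counts in its pairs with the other young libraries differed with a chi-square of 13.5 and 10.9 per degree of freedom, against 3.23 to 3.83 in every other pair within a group. Levels are given as CPM, read counts scaled to library size with edgeR's trimmed mean of M-values (TMM), and changes as aged over young. A gene is called where the edgeR quasi-likelihood test gave a Benjamini-Hochberg adjusted p under 0.05 over all 14273 tested genes. Levels are not compared between genes, because transcript lengths of the authors' annotation were not used here. In bulk samples, fewer cells of a type and less RNA per cell cannot be told apart.

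Of 12 stromal markers, 10 averaged over 10 CPM in both groups, and the marrow stromal markers Lepr and Vcam1 were nearly absent. Lepr had 0.544 ± 0.166 CPM in aged and 0.120 ± 0.139 CPM in young cells, and Vcam1 had 0.702 ± 0.220 CPM in aged and 0.360 ± 0.300 CPM in young cells (SD, n = 3 each). Cxcl12, a chemokine gene typical of marrow stroma, fell 16.7-fold, with 203 ± 1.44 CPM in aged and 3387 ± 165 CPM in young cells (SD, n = 3 each). Col1a1, a main bone collagen, stood at 10932 ± 41.6 CPM in aged and 19586 ± 202 CPM in young cells (SD, n = 3 each), and Thy1, Pdgfra, Pdgfrb, Eng and Cd44 were expressed in every library. Among 13 myeloid markers the summed level was 43.7 to 44.8 CPM in aged libraries and 93.6 to 96.5 CPM in young ones, most of it from Csf1r and Cd14 in aged cells and from Cd14 in young cells. The leukocyte gene Ptprc had 0, 0 and 1 counts in aged libraries, against 0 in each young one. Endothelial markers summed to 0.359 to 0.678 CPM in aged and 0.237 to 0.582 CPM in young libraries. The 6 adipocyte markers summed to 19.7 to 23.1 CPM in aged and 427 to 449 CPM in young libraries. Most of this came from Cebpa in aged cells and from Fabp4 in young cells. All 4 tested markers fell, and Adipoq and Lep were below the filter. Adipoq averaged 0.0476 CPM in aged and 0.297 CPM in young cells, and Lep 0.204 CPM in aged and 0.0537 CPM in young cells. The part of these transcripts in the results below was not tested.

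Of the 9 tested members, 5 fell and 3 rose in aged cells, and 1 was not called. Over all tested genes 86.4% were called, with 41.8% lower and 44.7% higher in aged cells, so the count of 8 called members is close to the background. Ptgs2, Ptges, Ptger2 and Hpgd were the 4 members called with a fall of 2-fold or more, which 21.0% of all tested genes showed. With Ptgis, which rose that far, they made 5 of 9, beside 50.4% of all tested genes in either direction. The groups did not overlap for 8 members, against 87.5% of all tested genes. The median log2 change of the members was -0.71, beside 0.05 over all tested genes. By role, both cyclooxygenase genes, the inducible E synthase gene, the EP2 gene and the degrading enzyme gene fell, and the other E synthase genes and the prostacyclin synthase gene rose. The rises of Ptges2 and Ptges3 were near the middle of all changes: 56.5% and 55.5% of all tested genes had a lower log2 change.

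**Figure D1:**
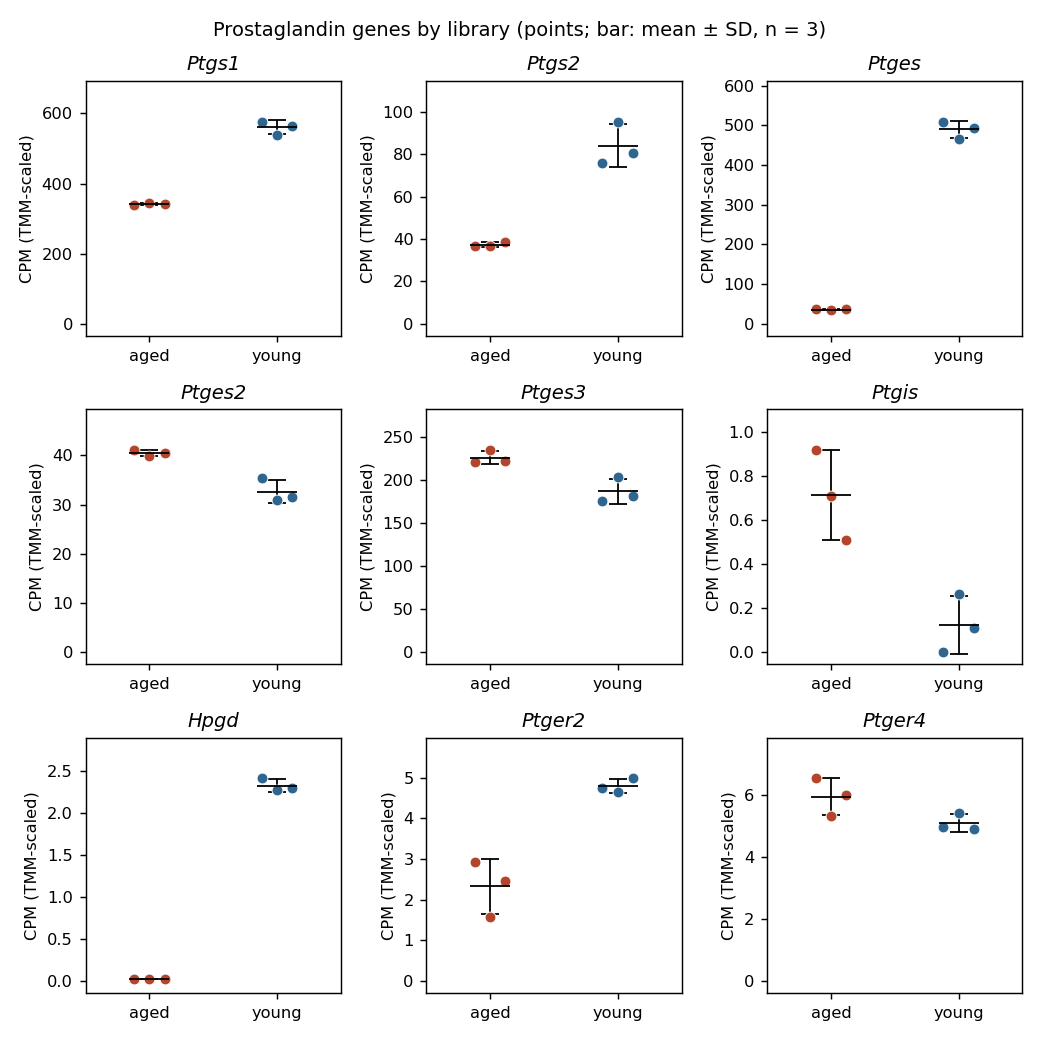
TMM-scaled CPM of the 9 measured prostaglandin genes in each aged and each young library, with points for libraries and bars for mean ± SD (n = 3), on a separate linear axis for each gene. Aged and young libraries do not overlap except for Ptger4, and Ptges shows the widest gap among the well-counted genes, 36.0 against 489.7 CPM on average.

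The RefSeq sequences around the start of 4 genes are shown because these genes lead the falls, or, for Ptgs1, as the constitutive counterpart of Ptgs2. Each run covers 250 bases before to 50 bases after the annotated start on build GRCr8, read along the gene's strand. Capitals mark matches on either strand to the E-box CACGTG, the C/EBP motif TTNNGCAA, the EGR motif GCGNGGGCG, the AP-1 motif TGANTCA, the CRE half-site TGACG or the NF-kB consensus, or on the gene's strand to TATAAA.
Ptgs1 (chr3:39981169-39981468, plus strand): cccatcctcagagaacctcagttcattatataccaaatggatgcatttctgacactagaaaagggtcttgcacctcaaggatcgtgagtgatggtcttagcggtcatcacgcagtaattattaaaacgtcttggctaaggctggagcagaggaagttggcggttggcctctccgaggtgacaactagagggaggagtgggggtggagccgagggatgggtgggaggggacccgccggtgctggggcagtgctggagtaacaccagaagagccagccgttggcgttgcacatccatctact
Ptgs2 (chr13:64713813-64714112, plus strand): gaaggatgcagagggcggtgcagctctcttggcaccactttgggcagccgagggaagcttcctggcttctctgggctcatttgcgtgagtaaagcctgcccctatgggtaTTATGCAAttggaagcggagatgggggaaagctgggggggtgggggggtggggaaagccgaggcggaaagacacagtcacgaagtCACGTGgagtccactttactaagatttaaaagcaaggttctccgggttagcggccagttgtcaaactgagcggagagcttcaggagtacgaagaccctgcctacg
Ptges (chr3:34586938-34587237, minus strand): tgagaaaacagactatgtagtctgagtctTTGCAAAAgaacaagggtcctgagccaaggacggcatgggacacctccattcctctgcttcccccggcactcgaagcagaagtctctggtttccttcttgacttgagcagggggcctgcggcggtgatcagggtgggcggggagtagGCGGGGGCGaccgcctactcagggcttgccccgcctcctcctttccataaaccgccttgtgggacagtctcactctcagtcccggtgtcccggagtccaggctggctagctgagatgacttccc
Hpgd (chr16:39034782-39035081, minus strand): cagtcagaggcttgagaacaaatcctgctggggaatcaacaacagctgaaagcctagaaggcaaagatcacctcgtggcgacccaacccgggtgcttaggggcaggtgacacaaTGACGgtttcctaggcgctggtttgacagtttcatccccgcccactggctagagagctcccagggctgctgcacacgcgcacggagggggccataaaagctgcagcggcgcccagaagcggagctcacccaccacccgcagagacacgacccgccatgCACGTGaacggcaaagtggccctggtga

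The Ptgs2 window held an E-box starting 55 bases and a C/EBP match starting 140 bases before the start. The Ptges window held an EGR match starting 74 bases and a C/EBP match, on the opposite strand, starting 221 bases before it. In the Hpgd window a CRE half-site began 136 bases before the start and an E-box lay just after it, and the Ptgs1 window held no match. Over all 33469 RefSeq windows of this length, the share with a match was 6.42% for the E-box, 10.6% for the C/EBP motif, 4.98% for the EGR motif, 21.2% for the CRE half-site, 7.33% for the AP-1 motif, 4.18% for the NF-kB consensus and 8.80% for TATAAA. Sequences were found for 8 of the 10 members, and 4 of these held no match to any motif, among them Ptgs1 and Ptger2, which fell. Ptges3, which rose, held a CRE half-site on the opposite strand, starting 6 bases before the start. The motifs were chosen with the expression values known, and a match is a description of letters.

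Both cyclooxygenase genes fell. Ptgs1 encodes the cyclooxygenase that most tissues make at all times. It had 340, 346 and 341 CPM in aged libraries, against 577, 539 and 566 CPM in young ones. Every aged library lay below every young one, and the spread within aged cells was small. Ptgs1 fell 1.64-fold (log2 change -0.71 ± 0.03 SE, edgeR adjusted p = 9.8e-13). Ptgs2 encodes the cyclooxygenase that cytokines and growth factors induce. Its level was 36.6, 36.7 and 38.7 CPM in aged libraries, against 76.0, 95.4 and 80.7 CPM in young ones. The groups did not overlap, and young replicate 2 was the highest library. Ptgs2 fell 2.25-fold (log2 change -1.17 ± 0.07 SE, edgeR adjusted p = 4.2e-11), and by 1.08 on the log2 scale without young replicate 2 (edgeR adjusted p = 4.1e-22).

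Reads per cyclooxygenase were also compared within each library, which does not depend on scaling between libraries. Aged libraries held 10.8, 10.6 and 11.3 Ptgs2 reads per 100 Ptgs1 reads, against 13.2, 17.7 and 14.3 in young libraries. All 3 aged ratios lay below all 3 young ones. The log2 ratio averaged -3.20 ± 0.05 in aged and -2.74 ± 0.22 in young cells (SD, n = 3 each), a difference of -0.45 (exact permutation test, two-sided, p = 0.1). In all, 5 such ratios were examined, each with an exact p of 0.1 and an adjusted p of 0.1, the smallest that 3 libraries against 3 can give. Without young replicate 2 the difference in this ratio was -0.33.

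A transcript named Ptgs2os, for the strand opposite Ptgs2, also fell. It had 166, 120 and 123 counts in aged libraries, against 482, 485 and 464 counts in young ones, a 3.94-fold fall (edgeR adjusted p = 1.8e-10). The strand setting of the counting is not given in the sources used here, so reads of Ptgs2 and of an overlapping opposite-strand transcript cannot be told apart.

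Among prostaglandin E synthases, the inducible one moved against the other members. Ptges encodes the microsomal enzyme that works beside cyclooxygenase-2 and is induced with it. Its level was 36.4, 35.2 and 36.4 CPM in aged libraries, against 510, 466 and 493 CPM in young ones. The highest aged value was far below the lowest young value. Ptges fell 13.6-fold (log2 change -3.77 ± 0.04 SE, edgeR adjusted p = 1.6e-20), and 2.01% of all tested genes had a lower log2 change.

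Ptges2 encodes a membrane-associated E synthase that is made constitutively. It had 41.1, 39.8 and 40.6 CPM in aged libraries, against 35.3, 30.9 and 31.7 CPM in young ones. Aged values were all higher, by 1.24-fold (log2 change 0.31 ± 0.06 SE, edgeR adjusted p = 2.2e-04). Ptges3 encodes the cytosolic E synthase, better known as p23, a co-chaperone of Hsp90. Its level was 220, 235 and 222 CPM in aged libraries, against 176, 203 and 181 CPM in young ones. The groups were separate, with the lowest aged library close above the highest young one, and Ptges3 rose 1.21-fold (log2 change 0.27 ± 0.05 SE, edgeR adjusted p = 5.3e-05). A gene named as like it, Ptges3l1, had 57, 28 and 39 counts in aged libraries, against 13, 26 and 12 counts in young ones. Another, Ptges3l, went the other way, with 575, 577 and 540 counts in aged libraries, against 1000, 1012 and 982 in young ones. Any reads that Ptges3 shares with these genes cannot be told apart.

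The balance between the E synthases, taken within each library, differed between the groups. There were 88.5, 88.4 and 89.8 Ptges reads per 100 Ptges2 reads in aged libraries, against 1443, 1510 and 1557 in young ones. The ratio was 16.9-fold lower in aged cells (log2 ratios -0.17 ± 0.01 and 3.91 ± 0.06, SD, n = 3 each, exact permutation test, two-sided, p = 0.1). Ptges also fell further than Ptgs2. Aged libraries held 99.3, 95.9 and 94.3 Ptges reads per 100 Ptgs2 reads, against 671, 489 and 611 in young ones, a 6.06-fold lower ratio in aged cells (exact permutation test, two-sided, p = 0.1). These Ptges ratios were chosen after the values were seen.

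**Figure D2:**
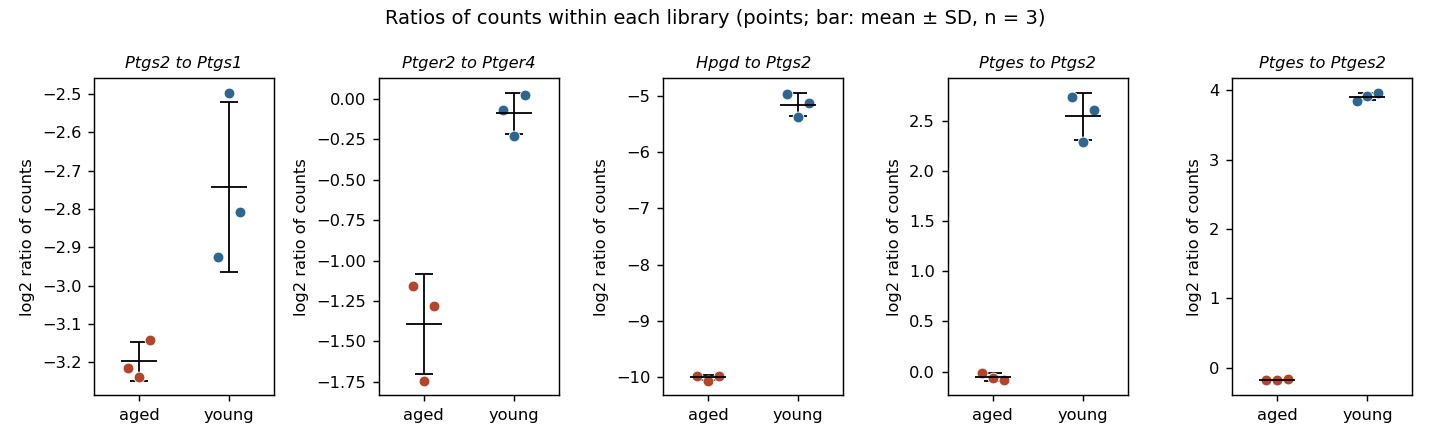
Log2 ratio of the counts of 2 genes within each library, for 5 gene pairs, with points for aged and young libraries and bars for mean ± SD (n = 3). In each pair all aged libraries lie below all young ones, and Hpgd to Ptgs2 and Ptges to Ptges2 show the widest gaps, -4.84 and -4.08 on the log2 scale.

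Ptgis, the gene of prostacyclin synthase, was scarcely detected. It had 38, 31 and 20 counts in aged libraries, against 0, 10 and 4 counts in young ones. That is 0.715 ± 0.204 CPM in aged and 0.125 ± 0.132 CPM in young cells (SD, n = 3 each), and the groups did not overlap. A library with 0 counts could still hold up to 3, which is 0.0831 CPM in young replicate 1. Ptgis rose 5.52-fold (log2 change 2.46 ± 0.62 SE, edgeR adjusted p = 0.0014), with a 95% interval of 2.23-fold to 13.7-fold. With so few counts 1 library weighed heavily: the log2 change was 3.60 without young replicate 2 and 1.88 without young replicate 1, where the call remained (edgeR adjusted p = 6.7e-05 and adjusted p = 0.0064).

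The receptor genes went apart. Ptger2 encodes EP2. It had 121, 69 and 96 counts in aged libraries, against 171, 176 and 178 counts in young ones. Aged values were lower and more scattered, at 2.32 ± 0.684 CPM, against 4.79 ± 0.175 CPM in young cells (SD, n = 3 each). Ptger2 fell 2.06-fold (log2 change -1.05 ± 0.20 SE, edgeR adjusted p = 1.3e-04). Ptger4 encodes EP4, the high-affinity receptor that signals through cyclic AMP as EP2 does. It had 270, 232 and 234 counts in aged libraries, against 179, 206 and 175 counts in young ones. Its CPM values overlapped between the groups, at 5.95 ± 0.611 in aged and 5.10 ± 0.293 in young cells (SD, n = 3 each). Ptger4 was not called (log2 change 0.22 ± 0.14 SE, edgeR adjusted p = 0.13), with a 95% interval of 0.957-fold to 1.42-fold. Scaled by library size alone it was higher in aged cells (log2 change 0.56, edgeR adjusted p = 0.0011).

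Within libraries the receptor ratio differed between the groups. Aged libraries held 44.8, 29.7 and 41.0 Ptger2 reads per 100 Ptger4 reads, against 95.5, 85.4 and 102 in young libraries. The highest aged ratio was below the lowest young one, a 2.47-fold lower ratio in aged cells (exact permutation test, two-sided, p = 0.1).

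Hpgd, which encodes the dehydrogenase that inactivates prostaglandin E2 by oxidising its 15-hydroxyl group, was nearly absent from aged cells. Each aged library held 1 read, against 87, 86 and 82 reads in young libraries. The level was 2.32 ± 0.0754 CPM in young cells (SD, n = 3), and the 3 reads of all aged libraries gave 0.0243 CPM. The TMM-scaled ratio of young over aged counts was 96.0, with a 95% exact binomial interval of 32.5 to 469 that covers counting error only. Hpgd fell in the edgeR test (adjusted p = 7.0e-10), and 0.462% of all tested genes had a lower log2 change. Aged libraries held 0.0661, 0.0625 and 0.0663 Hpgd reads per 100 Ptgs2 reads, against 3.17, 2.38 and 2.84 in young ones (exact permutation test, two-sided, p = 0.1). With a pseudocount of 5 in place of 0.5 counts, the difference in this log2 ratio was -2.92 in place of -4.84.

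**Figure D3:**
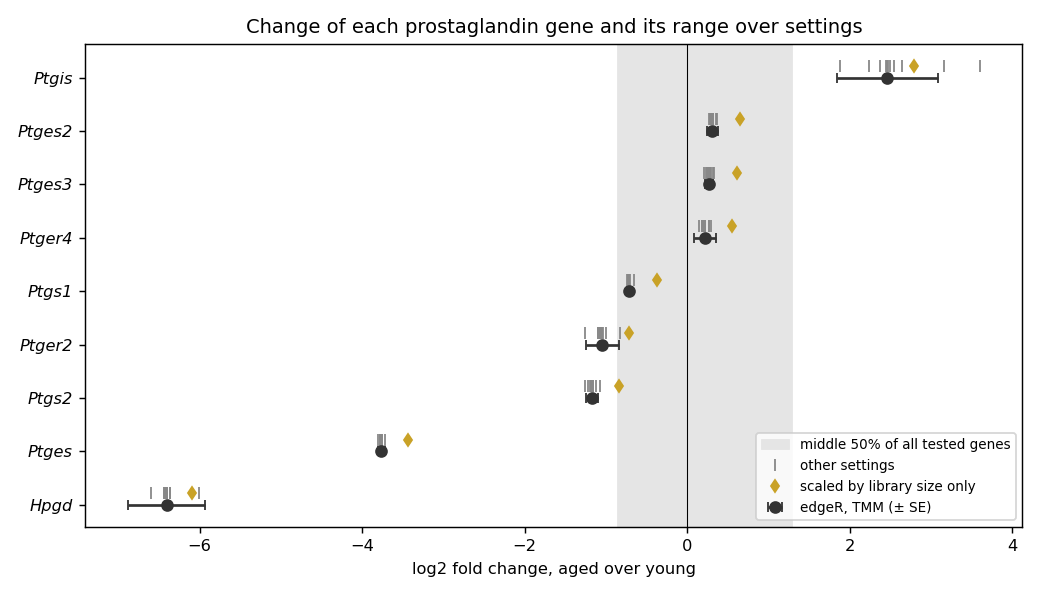
Log2 fold change of each member, aged over young, from the edgeR fit (points ± SE), with its values under other settings as ticks above it and under library size scaling as diamonds. The grey band holds the middle 50% of all tested genes; Hpgd and Ptges lie left of it and Ptgis right of it under every setting shown, and no member changes direction.

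The genes whose pattern over the 6 libraries was most like that of Ptgs2, out of 10255 genes with at least 5 CPM, were F2r, Gtdc1, Prrx1, Csgalnact1 and Ifitm3. Likeness was the Euclidean distance between log2 CPM profiles centred on their means, which ran from 0.0667 for F2r to 0.133 for Ifitm3. F2r encodes the thrombin receptor PAR1 and Prrx1 a transcription factor of limb and stromal mesenchyme. F2r had 126 ± 2.61 CPM in aged and 282 ± 26.4 CPM in young cells, and Prrx1 had 270 ± 2.51 CPM in aged and 593 ± 65.1 CPM in young cells (SD, n = 3 each). Like Ptgs2, all 5 genes had their highest level in young replicate 2, the library that stood apart. Its part in the likeness was not tested.

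The remaining prostanoid receptors, uptake and export genes changed in both directions, with 4 of 11 tested genes higher and 7 lower. The shares over all tested genes were 44.7% higher and 41.8% lower. The list's median log2 change was -0.94, beside 0.05 over all tested genes, and -0.60 under library size scaling, beside 0.39. Ptger1, Ptger3, Ptgfr and Ptgir were named after their values were seen. Ptger3, the gene of the EP3 receptor that lowers cyclic AMP, had 55, 58 and 63 counts in aged libraries, against 1 count in each young library. The TMM-scaled ratio of aged over young was 51.9 (95% exact binomial interval 17.5 to 254), an interval that covers counting error only. Ptger1, the gene of EP1, fell 1.42-fold, at 3.82 ± 0.139 CPM in aged and 5.44 ± 0.697 CPM in young cells (SD, n = 3 each, edgeR adjusted p = 0.0044), a call lost under library size scaling (edgeR adjusted p = 0.28). Of the 4 prostaglandin E2 receptor genes, Ptger3 rose, Ptger1 and Ptger2 fell, and Ptger4 was not called.

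Receptors for the other prostanoids were split as well. Ptgfr, the prostaglandin F receptor gene, had 50.6, 51.1 and 50.8 CPM in aged libraries, against 24.9, 30.5 and 20.9 CPM in young ones, a rise with a 95% interval of 1.74-fold to 2.29-fold (edgeR adjusted p = 2.0e-08). Tbxa2r, the thromboxane receptor gene, rose 4.35-fold (6.83 ± 1.54 CPM in aged and 1.57 ± 0.439 CPM in young cells, SD, n = 3 each). Ptgir, the prostacyclin receptor gene, fell 2.56-fold, with 13.2, 13.9 and 14.2 CPM in aged libraries, against 35.8, 33.5 and 36.6 CPM in young ones. The prostacyclin synthase and receptor genes changed in opposite directions, the first from a very low level.

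**Figure D4:**
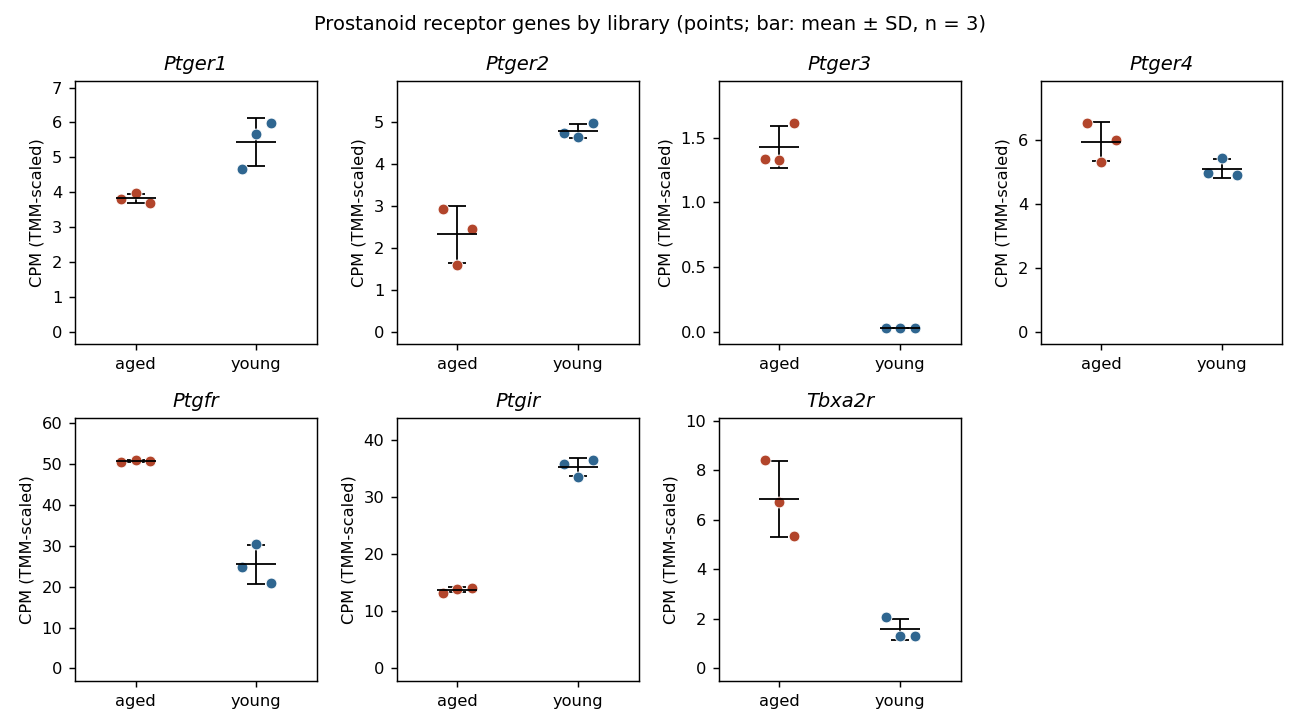
TMM-scaled CPM of 7 prostanoid receptor genes in each aged and young library, with points for libraries and bars for mean ± SD (n = 3), on a separate linear axis for each gene. Ptger3, Ptgfr and Tbxa2r are higher in every aged library, Ptger1, Ptger2 and Ptgir are lower in every aged library, and Ptger4 overlaps.

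The list holds 3 transporter genes, of which Slco2a1 and Slco3a1 fell and Abcc4 rose. Slco3a1, an organic anion transporter gene, fell 1.92-fold, with 829, 1052 and 848 counts in aged libraries, against 1497, 1494 and 1628 in young ones. Slco2a1 encodes the transporter that carries prostaglandins into the cell before Hpgd oxidises them. It had 7.0, 4.59 and 5.15 CPM in aged libraries, against 73.5, 75.4 and 74.7 CPM in young ones. All aged values were far below the young ones, a 13.4-fold fall (log2 change -3.74 ± 0.10 SE, edgeR adjusted p = 4.3e-16). Abcc4 encodes a pump that exports prostaglandin E2 and cyclic AMP. It stood at 145, 136 and 142 CPM in aged libraries, against 13.8, 16.7 and 17.7 CPM in young ones, an 8.79-fold rise (edgeR adjusted p = 4.1e-17). Pparg, a nuclear receptor for prostaglandin J2 derivatives and the master factor of fat cells, fell 17.6-fold, in the same direction as the summed adipocyte markers (19.7 to 23.1 CPM in aged and 427 to 449 CPM in young libraries), whose part was not tested.

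Upstream of the cyclooxygenases, 9 of 14 tested genes of arachidonate release fell and 3 rose, where 41.8% of all tested genes fell and 44.7% rose. Their median log2 change was -0.66, beside 0.05 over all tested genes. Under library size scaling 8 were lower and 4 higher, at a median of -0.32, beside 0.39 over all tested genes. The list also holds genes of enzymes that do not free arachidonate, such as Acsl4, which rose, and Lpcat3, which fell. The counts and the median therefore give no direction for release alone. Pla2g4a, the cytosolic phospholipase A2 gene that feeds cyclooxygenases in most cells, was not called, at 6.40 ± 0.774 CPM in aged and 6.67 ± 1.01 CPM in young cells (SD, n = 3 each, edgeR adjusted p = 0.71). Mgll, the gene of the lipase that frees arachidonate from an endocannabinoid, fell 38.8-fold, with 5, 3 and 7 counts in aged libraries, against 164, 190 and 176 in young ones. Pla2g5, a secreted phospholipase gene, fell 12.7-fold, and its young libraries were scattered at 49, 64 and 127 counts. Abhd6, another monoacylglycerol hydrolase gene, rose 4.40-fold (78.7 ± 2.60 CPM in aged and 17.9 ± 0.906 CPM in young cells, SD, n = 3 each), and Acsl4, the gene of an enzyme that loads arachidonate onto coenzyme A, rose 3.78-fold.

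Among 11 tested genes of other prostanoid synthases and prostaglandin reductases, 5 rose and 2 fell, where 44.7% of all tested genes rose and 41.8% fell. The list's median log2 change was 0.16, beside 0.05 over all tested genes. Under library size scaling 8 were higher and 1 lower, at a median of 0.50, beside 0.39 over all tested genes. Akr1b1, the gene of an aldose reductase that can make prostaglandin F2-alpha, had 563, 563 and 579 CPM in aged libraries, against 391, 352 and 380 CPM in young ones, a 1.52-fold rise (edgeR adjusted p = 5.6e-11). Its relative Akr1b8 rose 2.45-fold, a value that is uncertain where near-identical aldo-keto reductase genes share reads. Prxl2b, the gene of another prostaglandin F synthase, fell 2.43-fold (1.97 ± 0.0975 CPM in aged and 4.81 ± 0.218 CPM in young cells, SD, n = 3 each). Ptgr2, a prostaglandin reductase gene, fell 1.26-fold, a call lost under library size scaling (edgeR adjusted p = 0.97). The thromboxane synthase gene Tbxas1 and the blood cell type prostaglandin D synthase gene Hpgds were below the filter. Tbxas1 had 11, 11 and 3 counts in aged libraries, against 1, 2 and 0 counts in young ones, and Hpgds had 2, 0 and 1 counts in aged libraries, against 0 in each young one.

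The lipoxygenase branch, which uses the same arachidonate, was mostly silent. Of its 12 measured genes, 5 passed the filter, of which 3 fell and 1 rose, where 41.8% of all tested genes fell and 44.7% rose. The median log2 change was -1.35, the value of Gpx4, a glutathione peroxidase gene, beside 0.05 over all tested genes. Under library size scaling it was -1.01, beside 0.39. The 3 genes that fell, Gpx4, Mgst2 and Ephx2, are not lipoxygenase genes. The gene that rose, the lipoxygenase gene Aloxe3, had 32, 40 and 21 counts in aged libraries, against 5, 7 and 3 in young ones (edgeR adjusted p = 1.8e-04). Alox15, below the filter, had 15, 8 and 14 counts in aged libraries, against 1, 0 and 0 in young ones. Alox5, the first enzyme gene of leukotriene synthesis, had 2, 0 and 0 counts in aged libraries, against 0 in each young one. Mgst2, a glutathione transferase gene that can make leukotriene C4, fell 3.13-fold (68.5 ± 2.23 CPM in aged and 214 ± 5.21 CPM in young cells, SD, n = 3 each), and Ephx2, the soluble epoxide hydrolase gene, fell 4.70-fold.

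**Figure D5:**
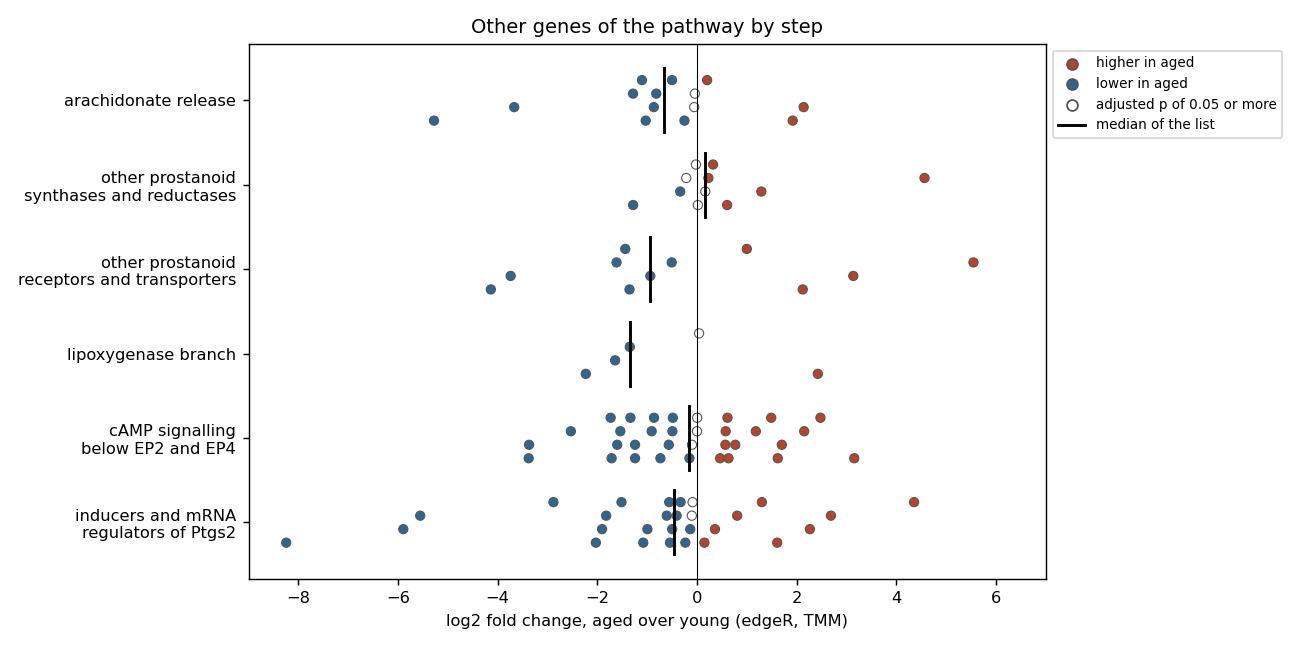
Log2 fold change, aged over young, of each tested gene of 6 lists of pathway genes, coloured by edgeR call, with black bars at list medians. Every list holds genes on both sides of 0; the leftmost point is Il1b, which had 0 counts in all aged libraries, so that its fitted change is not a measured fold.

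Below EP2 and EP4, 13 of 33 tested cyclic AMP genes were called higher and 17 lower, where 44.7% of all tested genes were higher and 41.8% lower. The list's median log2 change of -0.15 became 0.18 under library size scaling, so no direction is given for the list. Gnas, the gene of the G protein subunit that couples these receptors to adenylyl cyclase, fell 1.82-fold (865 ± 11.3 CPM in aged and 1574 ± 37.1 CPM in young cells, SD, n = 3 each). Adcy5, an adenylyl cyclase gene, rose 5.56-fold. The catalytic subunit genes of protein kinase A went apart: Prkaca fell 2.91-fold and Prkacb rose 2.80-fold. Phosphodiesterase genes did likewise, as Pde7a rose 8.90-fold while Pde3a and Pde7b each fell 10.4-fold. Creb1, the cyclic AMP-responsive transcription factor gene, rose 3.25-fold (19.3 ± 0.390 CPM in aged and 5.93 ± 0.768 CPM in young cells, SD, n = 3 each).

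Of 28 tested genes that induce or restrain Ptgs2 or act on its mRNA, 18 were called lower and 8 higher. Over all tested genes 41.8% were lower and 44.7% higher. The list's median log2 change was -0.46, beside 0.05 over all tested genes. The list mixes both kinds: Il1rn, an antagonist gene, was among the lower genes, and Nr3c1, the glucocorticoid receptor gene, among the higher. The counts and the median therefore give no direction for inducers alone. Under library size scaling 14 were lower and 10 higher, at a median of -0.12, beside 0.39 over all tested genes. Both interleukin-1 genes, classical inducers of Ptgs2 and Ptges, fell. Il1a had 16, 16 and 5 counts in aged libraries, against 620, 756 and 596 counts in young ones, a 59.5-fold fall (edgeR adjusted p = 1.2e-14). Il1b had 0 counts in every aged library and 29, 50 and 28 counts in young ones, at least 13.3-fold lower against a floor of 3 counts per library. Its receptor gene Il1r1 fell 2.11-fold. Il1rap, the gene of a further chain of that receptor, went the other way and rose 3.05-fold (edgeR adjusted p = 8.2e-11). The adaptor gene Myd88 was not called (edgeR adjusted p = 0.15). Il1rn, the gene of the antagonist that blocks the Il1r1 receptor, fell 47.0-fold, with 22.6 ± 1.58 CPM in aged and 1064 ± 29.4 CPM in young cells (SD, n = 3 each).

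Some listed transcription factor genes belong to families whose motifs were searched in the printed windows, and they were named after their values were seen. Of the CRE-binding factors, Creb1 and Atf1 rose, Atf1 by 1.49-fold, and Crem was not called (edgeR adjusted p = 0.30). Of the C/EBP and EGR factors, Cebpb fell 3.75-fold (150 ± 3.19 CPM in aged and 561 ± 14.1 CPM in young cells), Cebpd fell 7.37-fold (26.3 ± 0.708 CPM in aged and 194 ± 1.21 CPM in young cells) and Egr1 fell 4.09-fold (153 ± 1.40 CPM in aged and 624 ± 15.4 CPM in young cells; SD, n = 3 each). Each of Cebpb, Cebpd and Egr1 had an edgeR adjusted p of 3.3e-18 or less. Of the AP-1 factors, Jun fell 1.26-fold and Fos was not called (edgeR adjusted p = 0.47). Of the NF-kB factors, Nfkb1 fell 2.86-fold and Rela 1.41-fold. Among other listed regulators, Nfat5, a factor of the osmotic stress response, rose 20.5-fold. Celf2, the gene of an RNA-binding protein that acts on Ptgs2 mRNA, rose 6.44-fold. Binding of these factors was not measured here.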

How the data were processed

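Per the labels' protocols, TRIzol was used for RNA extraction and the VAHTS Universal V6 kit for the libraries. The tools, per the submitters' processing notes, were fastp, HISAT2 and HTSeq, with no version given. Neither genome build, annotation nor strand setting is given in the sources used here. Deposited were the authors' raw read counts per gene symbol, whole numbers with no normalization, and columns were matched to samples by library name. All 10 member symbols matched RefSeq symbols of GRCr8.

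Differences in counts were tested in edgeR 4.0.16 (R 4.3.3) by filterByExpr (minimum count 10), TMM scaling, glmQLFit and glmQLFTest with group as the only term, Benjamini-Hochberg adjustment over 14273 genes, threshold 0.05. Each SE is the log2 change over the root of its F value, and 95% intervals use the fit's degrees of freedom. Within-library ratios used counts plus 0.5 and an exact permutation test. The procedure was tested on simulated data with few changed genes, as many raised as lowered. In the real data 86.4% of tested genes were called, so that test cannot judge TMM scaling here. DESeq2 1.42.0, limma 3.58.1 (voom), other scalings and filters, and leaving out libraries served as alternatives.

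Members, gene lists and tests were chosen with earlier results of these data known. Named were all members; up to 2 called rises and 2 called falls per pathway list with a mean of at least 1 CPM; and the 5 genes closest to Ptgs2. Any further gene was picked as an example with its values in view. A count of 0 allows up to 3 counts, 0.0688 to 0.0840 CPM by library; floors and binomial intervals cover counting error only. No 2 libraries of a group agreed within sampling noise.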

Additional observations from a re-analysis of the deposited data

How the results depend on the processing

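Over 13 alternatives the 8 called members kept their direction and their call wherever they were tested, and 8 members were called under each of them except library size scaling (9, with Ptger4) and a filter at a mean of 1 CPM (7, which removes Ptgis). Library size scaling raised the median log2 change of all tested genes by 0.34, and then 62.3% of called genes were higher in aged cells in place of 51.7%. Under it, 8 genes of other prostanoid synthases and reductases rose and 1 fell, and Ptgs1 and Ptgs2 changed by -0.38 and -0.84 on the log2 scale. Pla2g4a, not called in any setting, changed sign under library size scaling (0.28), without young replicate 2 (0.040) and without aged replicate 3 (0.035), and ran from -0.19 to 0.040 over the fits that left out 1 library. In the lipoxygenase branch the 1 gene called higher became 2 under library size scaling, with no filter and without young replicate 1, 2 or 3 or aged replicate 2, and 0 under the filter at 1 CPM. The call for Anxa1 was lost under library size scaling. The cause was not tested. Replicate numbers are shared between groups, and the deviations of same-numbered libraries correlated at -0.03, -0.01 and 0.03. The highest correlation, 0.06, was between aged replicate 1 and young replicate 2. With 3 libraries a group, such correlations cannot show whether same-numbered libraries were paired. With the replicate block 12162 genes and 8 members were called, against 12339 and 8 without it, and within-pair ratios had exact permutation p of 0.25, the smallest that 3 pairs allow. Depth limits Hpgd, Ptgis and Ptger3, each with 1 group at 14 counts or fewer.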

Other observations

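Glucocorticoids are known to restrain Ptgs2, and genes of that response were listed with its inducers. Nr3c1, the glucocorticoid receptor gene, had 178 ± 2.39 CPM in aged and 37.0 ± 4.76 CPM in young cells (SD, n = 3 each), a 4.80-fold rise (edgeR adjusted p = 1.2e-15). Tsc22d3, a gene that glucocorticoids induce, had 245 ± 1.06 CPM in aged and 99.6 ± 5.30 CPM in young cells, a 2.46-fold rise. Anxa1, the gene of annexin A1, which restrains phospholipase A2, fell 1.33-fold, with 263 ± 6.86 CPM in aged and 350 ± 24.1 CPM in young cells. Dusp1, of the same list, fell 1.53-fold, with 313 ± 3.03 CPM in aged and 478 ± 13.0 CPM in young cells (SD, n = 3 each). Whether glucocorticoids were in the culture medium is not stated in the labels, and their part was not tested.

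Csf1r, the gene of a macrophage growth factor receptor, had 925, 935 and 837 counts in aged libraries, against 8, 8 and 19 in young ones. Of the 13 myeloid markers 4 were tested, and Csf1r rose while Cd14, Cd68 and Lyz2 fell. The other 9 were below the filter: Adgre1, Aif1 and Tyrobp had 0 counts in every aged library, and Mrc1 had 13, 3 and 6 counts in aged libraries, against 0, 2 and 0 in young ones. Cd14 had 21.0 ± 0.600 CPM in aged and 80.7 ± 0.772 CPM in young cells.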
